A study of Arabidopsis thaliana with 4 samples.

Results

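miR165 and miR166 are closely related plant microRNAs (miRNAs), and the small RNAs counted for them are described here in seedlings of Arabidopsis thaliana. All miRNA entries named miR165 or miR166 were taken, together with MIR166g (AT5G63715), the precursor gene of miR166g on chromosome 5. They came to 5 of the 349 entries of the miRNA table and 1 of the 38194 entries of the gene table. A single entry (ath-miR166a-3p;ath-miR166b-3p;ath-miR166c;ath-miR166d;ath-miR166e-3p;ath-miR166f;ath-miR166g), called miR166-3p below, holds the mature strand shared by all 7 miR166 copies. Another (ath-miR165a-3p;ath-miR165b), called miR165-3p below, holds the mature strand of miR165a and miR165b. The other 3 entries hold opposite (5p) strands: miR165a-5p, miR166a/b-5p (ath-miR166a-5p;ath-miR166b-5p) and miR166e-5p.

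Small RNAs were sequenced from seedlings 10 days after germination in PORI rpt2a, labelled as the rpt2a mutant, and in PORI, labelled as the control, with 2 libraries of each, from plants kept under long days. Both groups carry PORI, whose meaning the labels do not give, and the rpt2a allele is not named. RPT2a is an ATPase subunit of the proteasome's regulatory particle, and the series title concerns its part in gene silencing after transcription. Whether libraries of a group came from plants grown apart is not stated, so p-values here reflect library-to-library spread that may be technical only.

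A miRNA gene is transcribed into a hairpin, which the enzyme DCL1 cuts into a short duplex with a 3p and a 5p strand. ARGONAUTE1 (AGO1) keeps the mature strand, in this family the 3p strand, and the opposite strand is mostly degraded. miR165 and miR166 guide the cleavage of mRNAs of the HD-ZIP III transcription factors PHABULOSA, PHAVOLUTA, REVOLUTA, ATHB8 and CORONA, which set the upper side of leaves, maintain the shoot meristem and pattern vascular tissue. AGO10 binds the same miRNAs and keeps them from AGO1 in the meristem.

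The 3 count tables (miRNAs, genes and transposable elements) together held 5884528 and 3241463 counts in PORI rpt2a, and 5806942 and 4809644 in PORI. The miRNA table held 334074 and 125932 of these counts in PORI rpt2a, and 395530 and 291475 in PORI. PORI rpt2a replicate 2 stood apart, with 132 miRNA entries detected against 196 to 213 in the other libraries, and with miR158a-3p, the largest entry elsewhere, at 1.76% of its miRNA counts against 17.9% to 22.3%. The share of one abundant miRNA moves the shares of all others within the table, so levels are given on 2 scales below. One is counts per 1000000 (CPM) within the miRNA table, and the other is counts per 1000000 counts of the 3 tables (3-table CPM), which share some reads. Fragments of 4 leaf mRNAs, of the RBCS and CAB genes of photosynthesis, together had 3629 and 1522 counts in PORI rpt2a and 4311 and 3265 in PORI. The root mRNA of PYK10 had 84 and 31 counts in PORI rpt2a and 123 and 105 in PORI, and 2 seed storage mRNAs had 2 and 0 counts in PORI rpt2a and 3 and 1 in PORI. RPT2a itself (AT4G29040) had 38 and 8 counts in PORI rpt2a and 27 and 21 in PORI, which are small RNA reads and do not check the genotype.

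The mature strands made up a larger part of the miRNA table in both PORI rpt2a libraries than in either PORI library, although neither passed the test. miR166-3p had 48307 and 25076 counts in PORI rpt2a, and 48743 and 28467 in PORI. This was 14.5% and 19.9% of the miRNA table in PORI rpt2a, against 12.3% and 9.77% in PORI, and in PORI rpt2a replicate 2 it was the largest entry of all. After normalisation within the table (TMM, the trimmed mean of M-values), miR166-3p stood at 174225 and 198194 CPM in PORI rpt2a and at 110417 and 91208 CPM in PORI. The groups did not overlap, and the log2 fold change was 0.89 ± 0.65 (SE, n = 2 per group; edgeR adjusted p = 0.849).

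The counts of miR165-3p were 7563 and 5758 in PORI rpt2a and 7342 and 4410 in PORI. Its normalised level was 27277 and 45509.6 CPM in PORI rpt2a and 16632 and 14129.6 CPM in PORI, again without overlap. The log2 fold change was 1.24 ± 0.67 (SE; edgeR adjusted p = 0.849), and it passed only without PORI rpt2a replicate 1, at 1.55 (adjusted p = 0.0386), where PORI rpt2a is the single library that stood apart and is assumed to vary like the controls. That fit called 25.4% of 122 entries. Both 3p entries lay above both PORI libraries, as did 15.3% of the 111 miRNA entries tested. edgeR called 0% of these 111 entries and so none of the 5 entries of the family. At an unadjusted p under 0.05 there were 4.5%, or 5 entries, none of them of this family, and DESeq2 called 2, also of other families.

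In 3-table CPM, the levels came closer together. miR166-3p stood at 8209 and 7736 in PORI rpt2a and at 8394 and 5919 in PORI, so that both PORI rpt2a libraries lay between the PORI libraries. miR165-3p stood at 1285 and 1776 in PORI rpt2a and at 1264 and 917 in PORI, where the lower PORI rpt2a library lay just above the higher PORI library. On this scale 4.5% of the 111 entries lay above both PORI libraries in both PORI rpt2a libraries and 54.1% lay below both. On this scale the log2 fold changes were 0.16 for miR166-3p (edgeR adjusted p = 0.940) and 0.49 for miR165-3p (adjusted p = 0.676). The choice of scale set the median of all miRNA entries at -0.85, against -0.19 within the table, and relative to that median both 3p entries stayed higher. In bulk seedlings, a change in the number of cells that make a miRNA and a change in its amount per cell cannot be told apart.

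**Figure D1:**
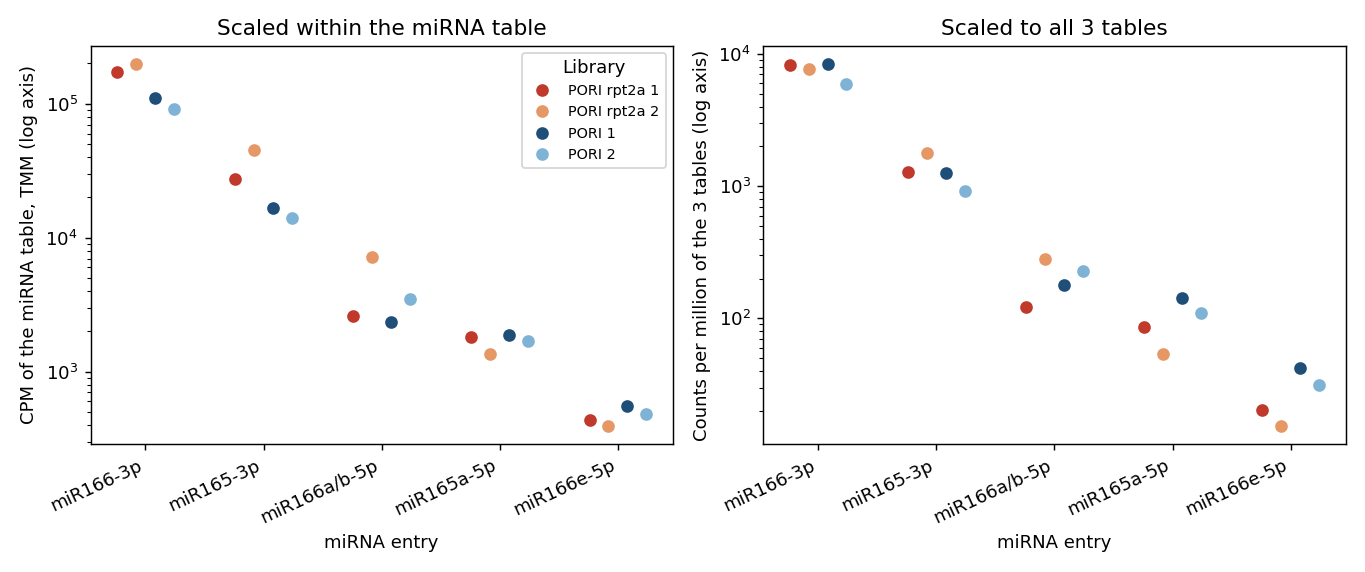
Levels of the 5 miR165 and miR166 entries in each library, one point per library, as TMM-normalised CPM of the miRNA table (left) and as 3-table CPM (right), both on log axes. miR166-3p lies at 174225 and 198194 CPM in PORI rpt2a, above 110417 and 91208 CPM in PORI on the left, and at 8209 and 7736 between the PORI values of 8394 and 5919 on the right.

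No 5p strand lay above both PORI libraries in both PORI rpt2a libraries. The counts of miR165a-5p were 506 and 173 in PORI rpt2a and 828 and 532 in PORI. It stood at 1825 and 1367 CPM in PORI rpt2a and at 1876 and 1705 CPM in PORI, with a log2 fold change of -0.16 ± 0.66 (SE; edgeR adjusted p = 0.937), and the groups overlapped. miR166e-5p, the rarest entry, had 120 and 50 counts in PORI rpt2a and 246 and 150 in PORI. Its 433 and 395 CPM in PORI rpt2a lay below its 557 and 481 CPM in PORI, as did 24.3% of all entries tested, with a log2 fold change of -0.32 ± 0.70 (SE; adjusted p = 0.874). In 3-table CPM, both entries lay lower in each PORI rpt2a library than in either PORI library, as did 54.1% of all entries, with 86.0 and 53.4 for miR165a-5p in PORI rpt2a and 142.6 and 110.6 in PORI. On that scale miR166e-5p stood at 20.4 and 15.4 in PORI rpt2a and at 42.4 and 31.2 in PORI. The log2 fold changes there, -0.86 for miR165a-5p and -1.04 for miR166e-5p, lay near the median of -0.85 over all entries. miR166a/b-5p overlapped on both scales. It had 722 and 907 counts in PORI rpt2a and 1043 and 1092 in PORI, with 2604 and 7169 CPM in PORI rpt2a and 2363 and 3499 CPM in PORI. Its log2 fold change of 0.74 ± 0.74 (SE; adjusted p = 0.870) was -0.19 without PORI rpt2a replicate 2 and -0.015 when scaled to the 3 tables.

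The ratio of the strands does not depend on how libraries are scaled. miR165a-5p held 6.27% (95% Wilson interval 5.76 to 6.82) and 2.92% (2.52 to 3.38) of the miR165 strand counts in PORI rpt2a, against 10.1% (9.50 to 10.8) and 10.8% (9.93 to 11.7) in PORI. The intervals of the groups did not meet, but they cover counting error only, and with 2 libraries against 2 the exact two-sided permutation test gave its smallest possible p, 0.333. miR165b has no 5p entry, so the 5p count comes from miR165a alone, whereas the 3p count comes from both genes. The miR166a/b-5p entry held 1.47% and 3.49% of its counts plus those of miR166-3p in PORI rpt2a, against 2.09% and 3.69% in PORI (exact permutation p = 0.667), and here the groups overlapped. Set against miR166-3p in the same way, miR166e-5p held 0.248% and 0.199% in PORI rpt2a and 0.502% and 0.524% in PORI. The miR166-3p count comes from all 7 MIR166 genes, so neither miR166 share is the strand ratio of a single gene. Both also depend on how much each gene contributes. Over the whole miRNA table, 30 pairs of 5p and 3p entries had at least 50 counts in each library, and the 5p share lay lower in both PORI rpt2a libraries in 16.7% of them, or 5 pairs, and higher in 6.67%. The pairs of miR165a and miR166e were among these 5, while that of miR166a was not.

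Between the families, miR165-3p held 13.5% and 18.7% of the summed 3p counts in PORI rpt2a, against 13.1% and 13.4% in PORI (exact permutation p = 0.333, the smallest possible). The Wilson intervals of PORI rpt2a replicate 1 (13.3 to 13.8) and PORI replicate 2 (13.0 to 13.8) overlapped, so the difference of 2.85 percentage points between group means came mainly from PORI rpt2a replicate 2.

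Most reads of both mature strands were 21 nt long, the usual length of DCL1 products. In miR166-3p, 21 nt reads made up 91.6% and 88.6% of counts in PORI rpt2a and 91.1% and 89.7% in PORI (exact permutation p = 1.00). In miR165-3p they made up 90.3% and 85.8% in PORI rpt2a and 90.0% and 88.1% in PORI (exact permutation p = 1.00). The next length was 22 nt, with 7.39% and 9.48% of miR166-3p in PORI rpt2a and 7.83% and 8.85% in PORI. For both strands the 21 nt shares of the PORI rpt2a libraries spanned those of the PORI libraries, with PORI rpt2a replicate 2 the lowest. In miR166a/b-5p, 21 nt reads made up 73.7% and 78.6% of counts in PORI rpt2a and 80.2% and 81.2% in PORI (exact permutation p = 0.333, the smallest possible). The 21 nt share of miR165a-5p was likewise lower, at 84.0% and 86.1% in PORI rpt2a and 87.0% and 88.9% in PORI. Of 47 miRNA entries with at least 50 counts in each library, 31.9% had a lower 21 nt share in both PORI rpt2a libraries and 12.8% a higher one. miR166a/b-5p also had reads of 24 nt, at 9.14% and 7.39% of its counts in PORI rpt2a and 7.86% and 7.23% in PORI, whereas miR166-3p had 2 reads of 24 nt in each library.

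With 21 nt reads alone, edgeR called 1.22% of 82 entries tested, which was 1 entry from another family, and 4.88% had an unadjusted p under 0.05, again none of these 5. The log2 fold changes of the family were 0.62 ± 0.62 for miR166-3p, 0.96 ± 0.64 for miR165-3p, 0.43 ± 0.71 for miR166a/b-5p, -0.47 ± 0.63 for miR165a-5p and -0.59 ± 0.64 for miR166e-5p (SE). Their edgeR adjusted p-values lay between 0.693 and 0.766. Both 3p entries again lay above both PORI libraries, as did 12.2% of entries, and miR165a-5p and miR166e-5p below both, as did 39.0%. Without PORI rpt2a replicate 1, miR166-3p (1.49, edgeR adjusted p = 0.0387), miR165-3p (2.05, adjusted p = 6.24e-05) and miR166a/b-5p (1.79, adjusted p = 6.01e-06) passed, with the single library that stood apart on the PORI rpt2a side. That fit called 44.3% of 88 entries, so 3 of 5 is near its background.

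**Figure D2:**
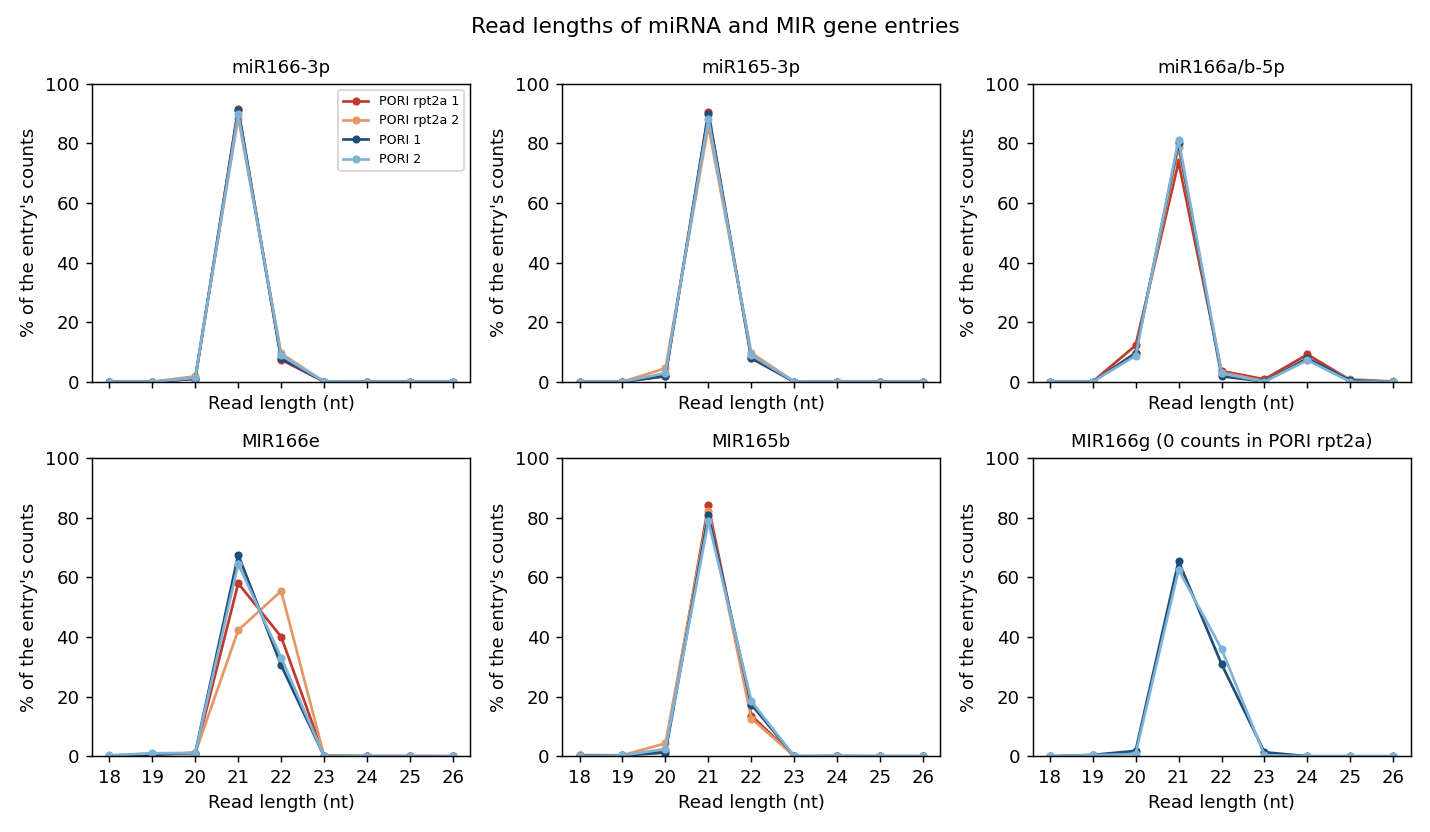
Share of each entry's counts (vertical axis, %) at read lengths from 18 to 26 nt (horizontal axis), one line per library, for 3 miRNA entries and 3 precursor genes. Reads of 21 nt dominate every entry except MIR166e in PORI rpt2a replicate 2, where 22 nt reads reach 55.4%, and MIR166g has lines for PORI only because it had 0 counts in PORI rpt2a.

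MIR166g had no count of any length in either PORI rpt2a library. It had 0 and 0 counts in PORI rpt2a and 223 and 272 in PORI, or 39.3 and 67.1 CPM of the gene table in PORI. With a floor of 3 counts for the 2 libraries together, MIR166g was at least 127-fold lower in PORI rpt2a, or at least 142-fold when scaled to the 3 tables. Such limits, here and below, cover counting error at the floor only and take the PORI counts as exact. They leave out the spread between libraries and the uncertain assignment of reads among the MIR166 genes. Of the genes tested, 29.6% lay below both PORI libraries in both PORI rpt2a libraries. The difference missed the threshold (edgeR adjusted p = 0.0686), although MIR166g had the fourth smallest p of the 8110 genes tested, of which 0.0247%, or 2, were called and 1868 had an unadjusted p under 0.05. Its adjusted p passed when any 1 library was left out, from 6.06e-13 to 0.0106, in edgeR fits that called 29.6% and 13.3% of genes without PORI rpt2a replicate 1 or 2, and 0.204% and 0.251% without PORI replicate 1 or 2. It passed without a low-count filter (1.24e-23, with 2.29% of genes called), in DESeq2 (1.37e-07, with 1.63%) and with the replicate number as a block (0.000163, with 7.35%). Over all alternatives it lay between 1.24e-23 and 0.190, the highest with the 3-table total. In 21 nt reads MIR166g had 0 and 0 counts in PORI rpt2a and 146 and 170 in PORI, at least 126-fold lower, or at least 90.5-fold when scaled to the 3 tables. It had the smallest p of 1414 genes, of which edgeR called 0% (MIR166g adjusted p = 0.0888), with 479 (33.9%) at an unadjusted p under 0.05 and 3 called by DESeq2, MIR166g among these (adjusted p = 3.04e-05). In edgeR the 21 nt adjusted p was 0.0837 without PORI replicate 1 and 0.170 without PORI replicate 2, and it passed without PORI rpt2a replicate 1 (0.0124) or 2 (7.2e-05).

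In PORI, 65.5% and 62.5% of the MIR166g reads were 21 nt long and 30.9% and 36.0% were 22 nt long. MIR166g was chosen with earlier results of these data known. It also passed the low-count filter only through its PORI counts. All its p-values above, their ranks and the numbers of genes that follow therefore describe MIR166g and test nothing. This holds for its passes under the alternatives too. Of 91 MIR genes with at least 50 counts in each PORI library, MIR166g was the only one at 0 in both PORI rpt2a libraries, and of 61 MIR genes with at least 50 counts in each PORI rpt2a library, 0 were at 0 in both PORI libraries. Over the whole gene table, 8 of 2187 entries met the first condition and 2 of 1384 the second. The 12 nearest annotated genes, 6 on each side of MIR166g, could not show whether the surrounding chromosome was affected, since they held at most 6 counts in any library. They included AT5G63710 next to it on one side, with 2 and 0 counts in PORI rpt2a and 2 and 0 in PORI, and KPL (AT5G63720) on the other, with 0 in all 4 libraries.

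The MIR166g value has to be read beside those of its sister genes. All 7 MIR166 genes give the same mature sequence, and a read of that sequence alone cannot tell them apart. The gene table divided the family's reads among the 7 genes and did not count them repeatedly. At 22 nt, the 7 MIR166 genes summed to 3597 and 2406 counts in PORI rpt2a and 3839 and 2551 in PORI, and the 3 miR166 entries of the miRNA table summed to 3596 and 2406 in PORI rpt2a and 3839 and 2551 in PORI. At 21 nt the sums differed by 11 and 4 counts in PORI rpt2a and by 18 and 23 in PORI, out of 22982 to 45484. How the authors assigned reads with several matching places is not given in the sources used here, so the count of any one MIR166 gene is uncertain. Summed over all lengths, the 7 MIR166 genes had 49807 and 26695 counts in PORI rpt2a and 50586 and 30279 in PORI. MIR166g held 0.441% and 0.898% of these counts in PORI, and 0 of 76502 counts in both PORI rpt2a libraries together, which at the same floor of 3 counts allows a share of up to 0.00392%.

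**Figure D3:**
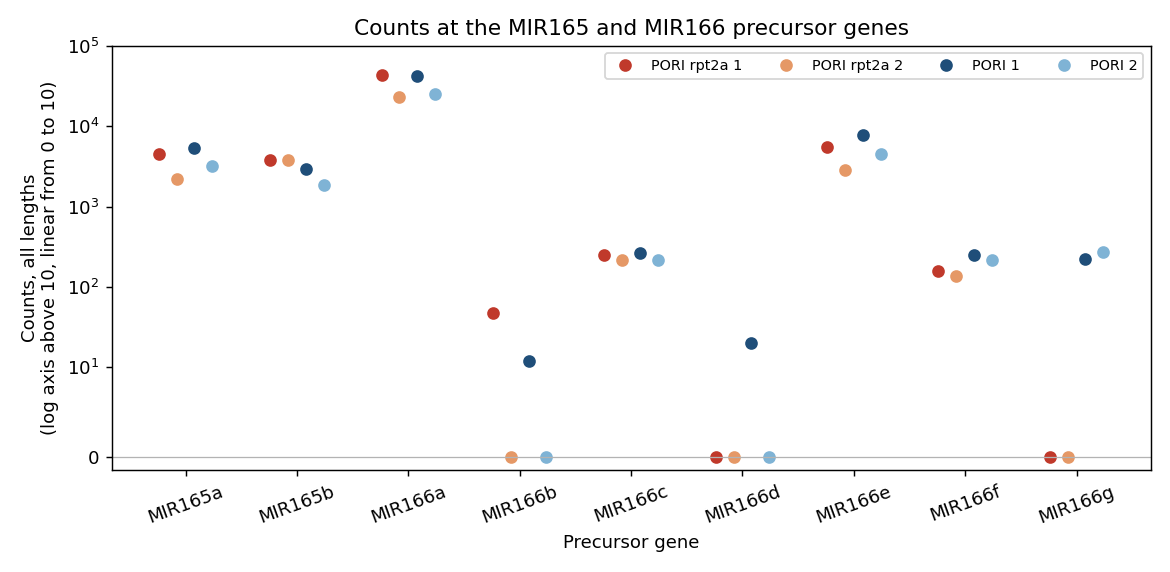
Counts over all read lengths at the 9 MIR165 and MIR166 precursor genes, one point per library, on an axis that is logarithmic above 10 and linear from 0 to 10. MIR166g lies at 223 and 272 counts in PORI and at 0 in both PORI rpt2a libraries, while MIR166c and MIR166f, at similar depth, have 138 to 263 counts in every library.

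Other MIR166 genes of similar depth had reads in all libraries. MIR166f had 159 and 138 counts in PORI rpt2a and 252 and 218 in PORI, a log2 fold change of -0.01 ± 0.46 (SE; edgeR adjusted p = 0.993). MIR166c had 247 and 217 counts in PORI rpt2a and 263 and 216 in PORI, at 0.62 ± 0.46 (adjusted p = 0.469). The 2 sparse genes switched between libraries of 1 group as well. MIR166b had 47 and 0 counts in PORI rpt2a and 12 and 0 in PORI, and MIR166d had 0 and 0 counts in PORI rpt2a and 20 and 0 in PORI, so that a copy with reads in replicate 1 had none in replicate 2.

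Most reads were assigned to MIR166a, with 43888 and 23472 counts in PORI rpt2a and 42009 and 25103 in PORI. This was 88.1% and 87.9% of the MIR166 gene counts in PORI rpt2a and 83.0% and 82.9% in PORI. Its log2 fold change was 0.54 ± 0.52 (SE; edgeR adjusted p = 0.576). In 21 nt reads MIR166a stood at -0.22 ± 0.46 (edgeR adjusted p = 0.733), whereas miR166-3p stood at 0.62 within the miRNA table. The sign for this gene thus depended on the reads and the table used for normalisation. MIR166e came next, with 5466 and 2868 counts in PORI rpt2a and 7807 and 4470 in PORI, at -0.02 ± 0.43 (adjusted p = 0.980). The MIR166e counts split by length. In 21 nt reads MIR166e had 3171 and 1213 counts in PORI rpt2a and 5276 and 2882 in PORI, below both PORI libraries after normalisation, as were 35.7% of the 1414 genes tested. The log2 fold change was -1.18 ± 0.46 (SE; edgeR adjusted p = 0.137), close to the median of -1.14 over MIR genes. It was -0.98 without PORI replicate 1 and -0.72 when scaled to the 3 tables. In 22 nt reads it had 2190 and 1589 counts in PORI rpt2a and 2380 and 1480 in PORI. The 22 nt share of MIR166e was therefore 40.1% and 55.4% in PORI rpt2a, against 30.5% and 33.1% in PORI (exact permutation p = 0.333, the smallest possible). How many other MIR genes separated the groups by their 22 nt share, or by their share of a family, was not counted. These differences are therefore not shown to be particular to MIR166e or MIR166a. MIR166e held 7.06% and 5.28% of the 21 nt MIR166 counts in PORI rpt2a and 11.6% and 10.8% in PORI, but 60.9% and 66.0% of the 22 nt counts in PORI rpt2a and 62.0% and 58.0% in PORI. The groups did not overlap at 21 nt and overlapped at 22 nt. In MIR166f the 22 nt share was 36.5% and 52.9% in PORI rpt2a and 29.4% and 39.4% in PORI, which overlapped.

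Of the MIR165 genes, MIR165b held a larger share in both PORI rpt2a libraries. MIR165b had 3787 and 3809 counts in PORI rpt2a and 2985 and 1863 in PORI. Of the 8110 genes tested, 27.5% lay above both PORI libraries in both PORI rpt2a libraries. MIR165b was among them, at 692 and 1912 CPM of the gene table in PORI rpt2a and at 527 and 459.5 CPM in PORI. Its log2 fold change of 1.40 ± 0.57 (SE; edgeR adjusted p = 0.217) was 0.57 when PORI rpt2a replicate 2 was left out. Leaving out PORI rpt2a replicate 1 gave 2.01, which passed (adjusted p = 3.95e-07), as did 0.85 for MIR166a and 1.18 for MIR166c (edgeR adjusted p = 0.0401 and 0.00168), in a fit that called 29.6% of 9187 genes. MIR165a had 4502 and 2202 counts in PORI rpt2a and 5435 and 3221 in PORI, at 0.14 ± 0.40 (adjusted p = 0.864), or -0.15 when scaled to the 3 tables. In 21 nt reads MIR165a stood at -0.62 ± 0.44 (edgeR adjusted p = 0.329) and MIR165b at 0.65 ± 0.52 (adjusted p = 0.381). MIR165b thus held 45.7% (Wilson interval 44.6 to 46.8) and 63.4% (62.1 to 64.6) of the MIR165 gene counts in PORI rpt2a, against 35.5% (34.4 to 36.5) and 36.6% (35.3 to 38.0) in PORI (exact permutation p = 0.333, the smallest possible). The 22 nt share of MIR165b, unlike that of MIR166e, was lower in both PORI rpt2a libraries, at 13.6% and 12.7% in PORI rpt2a and 17.4% and 18.5% in PORI. For both shares of MIR165b, too, the number of other MIR genes that separated the groups was not counted. The miR165 copies also give one mature sequence, and the same uncertainty of assignment applies to them. The lower miR165a-5p share described above goes with the larger MIR165b share in the same libraries, PORI rpt2a replicate 2 lying farthest from PORI in both, and the part of one in the other was not tested.

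**Figure D4:**
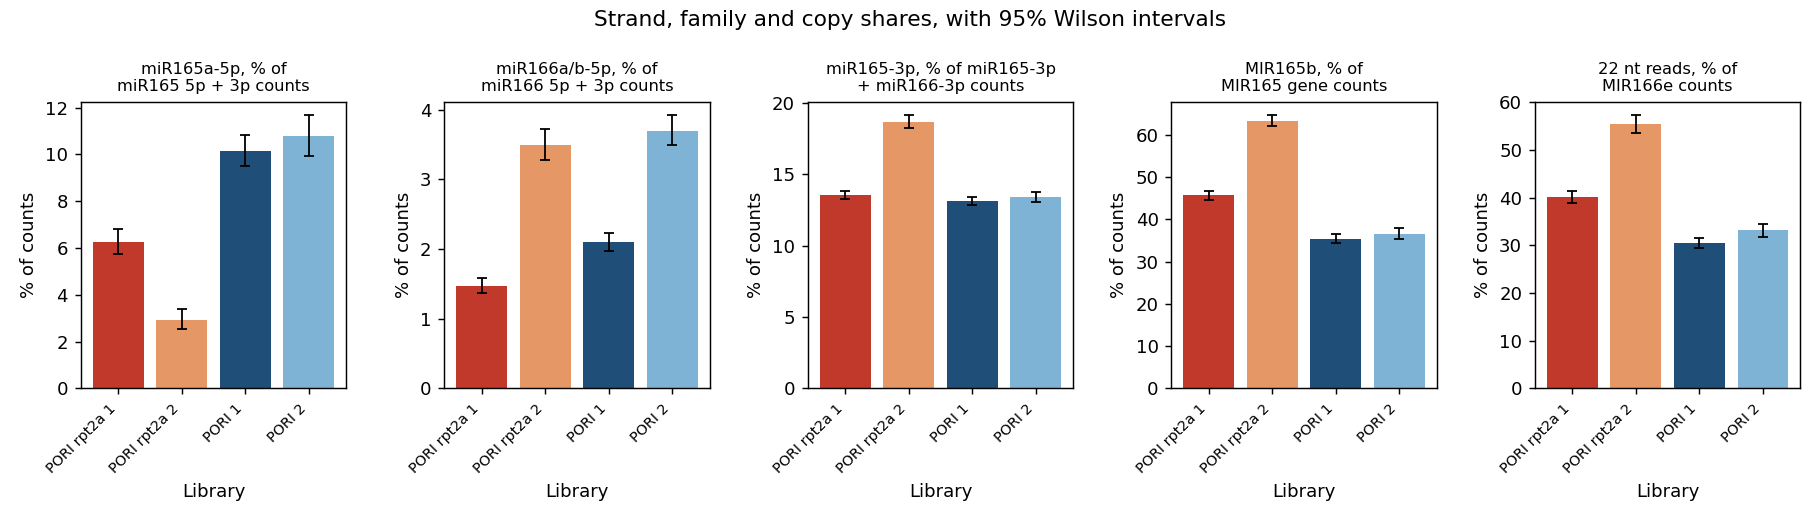
Shares of counts (vertical axes from 0, %) in each library, with 95% Wilson intervals that cover counting error only: miR165a-5p among miR165 strands, miR166a/b-5p among its strands, miR165-3p among both 3p entries, MIR165b among MIR165 genes, and 22 nt reads of MIR166e. The miR165a-5p share is 6.27% and 2.92% in PORI rpt2a against 10.1% and 10.8% in PORI, and the MIR165b share is 45.7% and 63.4% against 35.5% and 36.6%, while the miR166a/b-5p shares overlap.

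Over the 9 precursor genes, 8 could be tested over all lengths and edgeR called none in either direction. Of these 8, 5 lay above 0 and 3 below, with a median log2 fold change of 0.34, beside a median of -0.04 over all genes tested and -0.54 over MIR genes. Among the 5 was MIR166b, at 2.10 ± 1.39 (SE), which had reads in 1 library of each group only. The genes of a family also divide shared reads, so their values are not independent. In 21 nt reads 7 were tested, none was called, and 1 lay above 0 (MIR165b) and 6 below, with a median of -0.62, beside -0.10 over all genes and -1.14 over MIR genes. Scaling to the 3 tables moved the median of all genes in 21 nt reads to 0.36.

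The HD-ZIP III targets gave almost no small RNAs. All 5 were detected and none had enough counts to be tested, with 24 and 8 counts in PORI rpt2a and 36 and 25 in PORI for the 5 together. PHABULOSA had 9 and 0 counts in PORI rpt2a and 8 and 7 in PORI, and ATHB8, which acts in vascular tissue, had 2 and 2 counts in PORI rpt2a and 9 and 7 in PORI. REVOLUTA had 3 and 3 counts in PORI rpt2a and 7 and 4 in PORI. These are fragments or small RNAs of the mRNAs and do not measure mRNA levels or cleavage. The ZPR genes, whose small proteins bind HD-ZIP III proteins and inhibit them, had at most 3 counts in any library, and 2 of the 4 had none.

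Of 6 genes for making or using miRNAs, 2 could be tested and neither was called. DCL1, which cuts the hairpins and whose own transcript carries a miRNA, had 29 and 19 counts in PORI rpt2a and 72 and 95 in PORI, below both PORI libraries as were 29.6% of genes, at a log2 fold change of -1.33 ± 0.50 (SE; edgeR adjusted p = 0.187). In 21 nt reads it had 20 and 14 counts in PORI rpt2a and 57 and 84 in PORI, below both as were 35.7% of genes, at -2.27 ± 0.52 (adjusted p = 0.0888). The median in 21 nt reads was -0.10 over all genes and -1.14 over MIR genes. Whether the DCL1 reads came from the miRNA in its transcript was not tested. Counts of DCL1 and of the genes below are small RNA reads and do not measure mRNA levels. AGO1 had 55 and 11 counts in PORI rpt2a and 65 and 46 in PORI, at -0.50 ± 0.43 (adjusted p = 0.530), and AGO10 had 5 and 1 counts in PORI rpt2a and 11 and 5 in PORI and was not tested. Of 5 factors that act upstream or in leaf polarity, 1 could be tested. SCARECROW, which works with SHORT ROOT to switch on MIR165a and MIR166b in the root, had 5 and 4 counts in PORI rpt2a and 12 and 10 in PORI, at -0.82 ± 0.62 (edgeR adjusted p = 0.471). The leaf polarity factor AS1 had 10 and 1 counts in PORI rpt2a and 11 and 6 in PORI, and KAN1, which sets the lower side of leaves, had 5 and 1 in PORI rpt2a and 6 and 4 in PORI.

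The miRNA entries nearest in pattern were found from the root mean square difference of centred log2 CPM over the 4 libraries, a description that rests on 4 points. miR164c-5p was nearest to both 3p entries, at 0.23 for miR166-3p and 0.21 for miR165-3p, and the 3p entries came second to each other, at 0.25, where the median over the 110 other entries was 0.86 for miR166-3p and 1.00 for miR165-3p. The third was miR3932b-5p for miR166-3p (0.30) and the miR5995b/miR5595a entry for miR165-3p (0.31). miR165a-5p and miR166e-5p lay 0.13 apart and shared their other neighbours, miR161.1 (0.099 and 0.17) and the miR157-5p entry (0.13 and 0.15). miR166a/b-5p was nearest to the miR5642 entry (0.18), miR156c-3p (0.19) and miR858a (0.22), and to no member of its own family. MIR166g had no close neighbour among 177 other MIR genes, where the median was 2.62. The nearest were MIR8183 (AT3G05985) at 1.65, MIR5643a (AT5G04955) at 1.75 and MIR167a (AT3G22886) at 1.82. None of these was at 0 in both PORI rpt2a libraries with at least 50 counts in each PORI library. MIR166g was chosen with earlier results known, so these distances describe it and test nothing.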

How the data were processed

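Small RNA libraries were assigned to PORI rpt2a or PORI by their titles. The authors deposited raw whole-number counts per entry, with a column for each read length between 18 and 26 nt. CASAVA 1.8.2, FastQC 0.11.2, cutadapt 1.9.1, HTSeq, DESeq2 and build TAIR10 are named in the submitters' processing notes. The aligner, strand use and the treatment of reads with several matching places are not given in the sources used here.

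Counts summed over lengths, and 21 nt counts, were tested over each whole table with edgeR 4.0.16 in R 4.3.3 (quasi-likelihood test, TMM within the table, filterByExpr with a minimum count of 10 and total of 15, Benjamini-Hochberg adjustment, threshold 0.05, group as the only term). Standard errors were set so that the squared ratio of log2 fold change to error equals F. Shares were compared by exact two-sided permutation tests (scipy 1.17.1), whose smallest p is 0.333, and carry 95% Wilson intervals. Scripts were tested on simulated data. Alternatives were DESeq2 1.42.0, DESeq2 size factors, the 3-table total as library size, no filter or at least 50 counts, a replicate block, other read lengths, pooled counts and leaving out each library.

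Genes were named by locus tag from RefSeq's TAIR10.1 table, used for names, gene classes and gene order only. Named were all members, all MIR165 and MIR166 genes, from each other list the members that passed or up to 3 with the most counts, RPT2a and the 3 entries nearest in pattern. Members and lists were chosen with earlier results of these data known. The shares of miR165a-5p, miR166e-5p and MIR165b, the 22 nt shares and the backgrounds of shares were chosen after seeing the data.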

Additional observations from a re-analysis of the deposited data

How the results depend on the processing

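No miRNA of the family was called with all 4 libraries under any alternative. Of the called entries, edgeR with DESeq2 size factors gave 1 miRNA over all lengths, no low-count filter gave 1 and DESeq2 gave 2, while in 21 nt reads the 3-table total gave 0 and DESeq2 gave 2. For genes over all lengths, no low-count filter gave 669, at least 50 counts gave 0, DESeq2 gave 477 and the replicate block gave 596. For genes in 21 nt reads, the 3-table total gave 143, no low-count filter gave 82, DESeq2 gave 3 and the replicate block gave 9. With 1 library left out, calls ranged from 0 to 31 and 0 to 39 for miRNAs (all lengths, 21 nt), and from 18 to 2718 and 0 to 250 for genes. The replicate numbers pair nothing by the labels, and same-numbered libraries deviated together with r = 0.27 over miRNA and 0.16 over gene entries, or 0.41 and 0.21 in 21 nt reads. The block left the log2 fold changes of miR166-3p and miR165-3p at 0.89 and 1.20 and took MIR166g past the threshold (edgeR adjusted p = 0.000163), as did no low-count filter (1.24e-23) and DESeq2 (1.37e-07).

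Log2 fold changes that turned sign were those of miR166a/b-5p under the 3-table total (-0.015 over all lengths, -0.082 in 21 nt reads) and MIR165a (-0.15). Between all lengths and 21 nt reads, the values of MIR165a (-0.62 in 21 nt reads), MIR166a (-0.22) and MIR166c (-0.17) also turned sign. With 1 library left out, all-length values ranged from 0.81 to 1.55 for miR165-3p, 0.63 to 1.06 for miR166-3p, -0.40 to 0.013 for miR165a-5p, -0.19 to 1.28 for miR166a/b-5p, -0.0089 to 0.39 for MIR165a, -0.061 to 1.18 for MIR166c, -0.23 to 0.27 for MIR166e and -0.68 to 0.55 for MIR166f. In 21 nt reads they ranged from -0.35 to 0.12 for miR165a-5p, -0.48 to 1.79 for miR166a/b-5p and -0.50 to 0.15 for miR166e-5p. The adjusted p of MIR166g ranged from 6.06e-13 to 0.0106 over all lengths and from 7.2e-05 to 0.170 in 21 nt reads, where it failed without PORI replicate 1 or 2. Differences of shares ranged from -1.82 to 1.17 percentage points for the 21 nt share of miR166-3p, -3.28 to 1.30 for that of miR165-3p and -1.42 to 0.60 for the 5p share of miR166, and those of the other shares compared kept their sign. MIR166g was chosen with earlier results known, so its p-values under any setting describe it and test nothing. The causes were not tested. Counts of 50 to 246 limit miR166e-5p, and 2 libraries per group limit every test.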
